A study of Homo sapiens with 12 samples.

Results

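The 46 genes described here encode the proteins of the lysosome: its membrane proteins and channels, its lipid, sugar and protein hydrolases with the cathepsins, the subunits of its proton pump, and the transcription factor TFEB. They were chosen by name. A gene counted as measured when a probe of it had a detection p-value under 0.01, that is, a signal above the negative controls of the array, on at least 4 of 12 arrays, and 41 of the 46 genes were measured among 12486 measured genes in all. RNA came from established lines of acute lymphoblastic leukemia (ALL). Jurkat and Molt4 are of the T-cell lineage (T-ALL), whereas Nalm6 and RS4;11 are of the B-cell precursor lineage (BCP-ALL). Each line was stably transduced with a lentiviral pLKO1-mCherry vector that carried a scrambled shRNA (shControl) or an shRNA against CREB (shCREB2 or shCREB3), and the transduced cells were then expanded. Each line with each vector was hybridized on 1 Illumina BeadChip array. The line is therefore the replicate, with 4 lines per vector, and p-values of the shRNA comparisons measure the spread between these lines. In the tests of shCREB2, of shCREB3 and between them, this spread was pooled over all 12 arrays. The standard error and p-value of 1 shRNA therefore also rest on the arrays of the other. All values are log2 signals after quantile normalization, and a change is the difference from the shControl array of the same line. Since each array measured the RNA of a whole culture, fewer expressing cells and less RNA per cell cannot be told apart.

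Lysosomes are acidic compartments in which hydrolases degrade lipids, glycans and proteins that arrive by endocytosis and autophagy. The acid comes from the vacuolar ATPase, a rotary pump whose cytosolic V1 sector splits ATP and whose membrane V0 sector moves protons. TFEB and its relatives bind an E-box motif called the CLEAR element in promoters of many lysosomal genes, while CREB binds the cAMP response element.

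The promoters of the members were read for both motifs, since the results below turn on genes of 1 pathway that moved in opposite directions. In RefSeq (GRCh38.p14), a promoter sequence was at hand for 34 of the 46 members, with CTSL1 matched by its current symbol CTSL, and the 250 bases before the start were searched on both strands. The E-box CACGTG was found in 10 of 34 members (29.4%) and in 2228 of 35116 promoters in all (6.34%). Its flanked form TCACGTGA, which contains CACGTG, was found in 6 of 34 members (17.6%) against 0.854% of all promoters. The full cAMP response element TGACGTCA was found in 0 of 34 members against 1.65% of all promoters, and its short form CGTCA in 11 of 34 members (32.4%) against 21.2%. Shown here are the promoters of ATP6V0D1 and TPP1, both higher with shCREB2, of LIPA and ATP6V0A2, both lower with 1 shRNA, and of LAMP1 and MCOLN1, which hold the E-box more than once. They lie at chr16:67481158-67481407 (- strand), chr11:6619423-6619672 (- strand), chr10:89414680-89414929 (- strand), chr12:123712103-123712352 (+ strand), chr13:113296989-113297238 (+ strand) and chr19:7522374-7522623 (+ strand). Each is written from 5′ to 3′ on the strand of its gene and ends at the base before the start, and capitals mark CACGTG, TCACGTGA and CGTCA on either strand, which overlap at the last E-box of LAMP1.
ATP6V0D1: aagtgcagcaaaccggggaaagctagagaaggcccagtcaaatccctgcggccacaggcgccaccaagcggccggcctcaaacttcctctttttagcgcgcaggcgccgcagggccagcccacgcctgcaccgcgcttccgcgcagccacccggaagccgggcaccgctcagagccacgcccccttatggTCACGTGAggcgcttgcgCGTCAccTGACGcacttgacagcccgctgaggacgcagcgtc
TPP1: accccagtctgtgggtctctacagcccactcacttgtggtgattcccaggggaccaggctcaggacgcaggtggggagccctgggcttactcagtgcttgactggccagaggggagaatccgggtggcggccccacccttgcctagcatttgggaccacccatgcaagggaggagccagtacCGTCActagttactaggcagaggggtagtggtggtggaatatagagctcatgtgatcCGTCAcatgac
LIPA: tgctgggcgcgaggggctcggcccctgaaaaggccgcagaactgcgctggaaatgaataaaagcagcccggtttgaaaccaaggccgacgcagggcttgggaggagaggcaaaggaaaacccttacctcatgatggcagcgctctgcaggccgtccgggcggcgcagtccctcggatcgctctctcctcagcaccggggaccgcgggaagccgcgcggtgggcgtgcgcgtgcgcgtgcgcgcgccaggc
ATP6V0A2: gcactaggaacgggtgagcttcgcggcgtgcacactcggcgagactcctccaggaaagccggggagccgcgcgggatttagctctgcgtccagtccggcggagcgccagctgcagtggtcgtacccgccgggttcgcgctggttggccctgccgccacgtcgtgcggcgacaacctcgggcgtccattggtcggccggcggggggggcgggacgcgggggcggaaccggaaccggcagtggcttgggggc
LAMP1: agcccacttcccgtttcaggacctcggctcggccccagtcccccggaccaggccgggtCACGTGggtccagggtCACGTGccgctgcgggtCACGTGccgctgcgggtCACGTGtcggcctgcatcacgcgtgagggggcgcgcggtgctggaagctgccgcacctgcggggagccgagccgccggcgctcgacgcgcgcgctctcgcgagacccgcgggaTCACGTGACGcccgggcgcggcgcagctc
MCOLN1: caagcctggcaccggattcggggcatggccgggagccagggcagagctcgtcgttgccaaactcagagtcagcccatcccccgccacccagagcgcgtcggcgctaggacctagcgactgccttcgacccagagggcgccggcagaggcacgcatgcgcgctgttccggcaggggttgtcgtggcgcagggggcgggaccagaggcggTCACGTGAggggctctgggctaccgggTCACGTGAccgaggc
LAMP1 held 5 copies of CACGTG and MCOLN1 held 2 flanked copies, whereas LIPA and ATP6V0A2 held none of the motifs in these windows. A match is a description of the letters and not a bound site.

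The mRNA of CREB1, the gene that both shRNAs target, was higher than in shControl on 6 of the 8 arrays that carry an shCREB label. Its averaged log2 difference was 0.18 over the 4 lines (limma, standard error 0.07, adjusted p = 0.202). The arrays measure mRNA and not CREB protein, and the groups are named by their labels in every direction given below. Between 14320 and 15660 of 47323 probes passed the detection p-value per array. The Nalm6 array with shCREB2 stood apart, with a highest correlation to any other array of 0.970, whereas the others reached 0.987 to 0.997. All 10 T-cell markers were detected on every array of Jurkat and Molt4, and their summed signal was 16410 to 22270 there against 1269 to 1549 in Nalm6 and RS4;11. The summed B-cell markers were 33640 to 49770 in Nalm6 and RS4;11 against 1797 to 2265 in the T-ALL lines. PAX5 was detected on 0 arrays, MS4A1 only on 1 Molt4 array and BLNK only in Nalm6. Some markers were also detected in the other lineage. LCK and ZAP70 were detected on every BCP-ALL array, and CD3D on all 3 RS4;11 arrays. CD79A, CD79B and IGLL1 were detected on every T-ALL array, and VPREB1 on all 3 Molt4 arrays. Myeloid markers summed to 1644 to 4917 over the 12 arrays, with MPO, ITGAM, TYROBP and FCER1G detected on none. LYZ was detected only on the 3 Nalm6 arrays and CSF1R only on the 3 RS4;11 arrays. CD33 was detected on 3 Nalm6 and 2 RS4;11 arrays, and CEBPA on every array outside Nalm6. CD14 and AIF1 were detected in every line. Markers of embryonic kidney cells, from which lentivirus is packaged, summed to 462 to 1684, with only CDH2 detected, in the T-ALL lines. Of the markers of these 4 kinds, 0 were called with either shRNA or with both averaged, and their part in the results was not tested.

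A few lysosomal genes fell with each shRNA. With shCREB2, the catalytic pump subunit ATP6V1A fell by 1.02 on the log2 scale, ATP6V1B2 fell by 0.89 and the acid lipase LIPA fell by 1.00. With shCREB3, the membrane subunit ATP6V0A2 fell by 0.81 and the thioesterase PPT1 fell by 0.57, while the 3 genes named before differed by -0.34, 0.06 and 0.02. These values are from limma over the 4 lines, and calls rest on a Benjamini-Hochberg adjusted p under 0.05 over all 12486 genes.

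**Figure D1:**
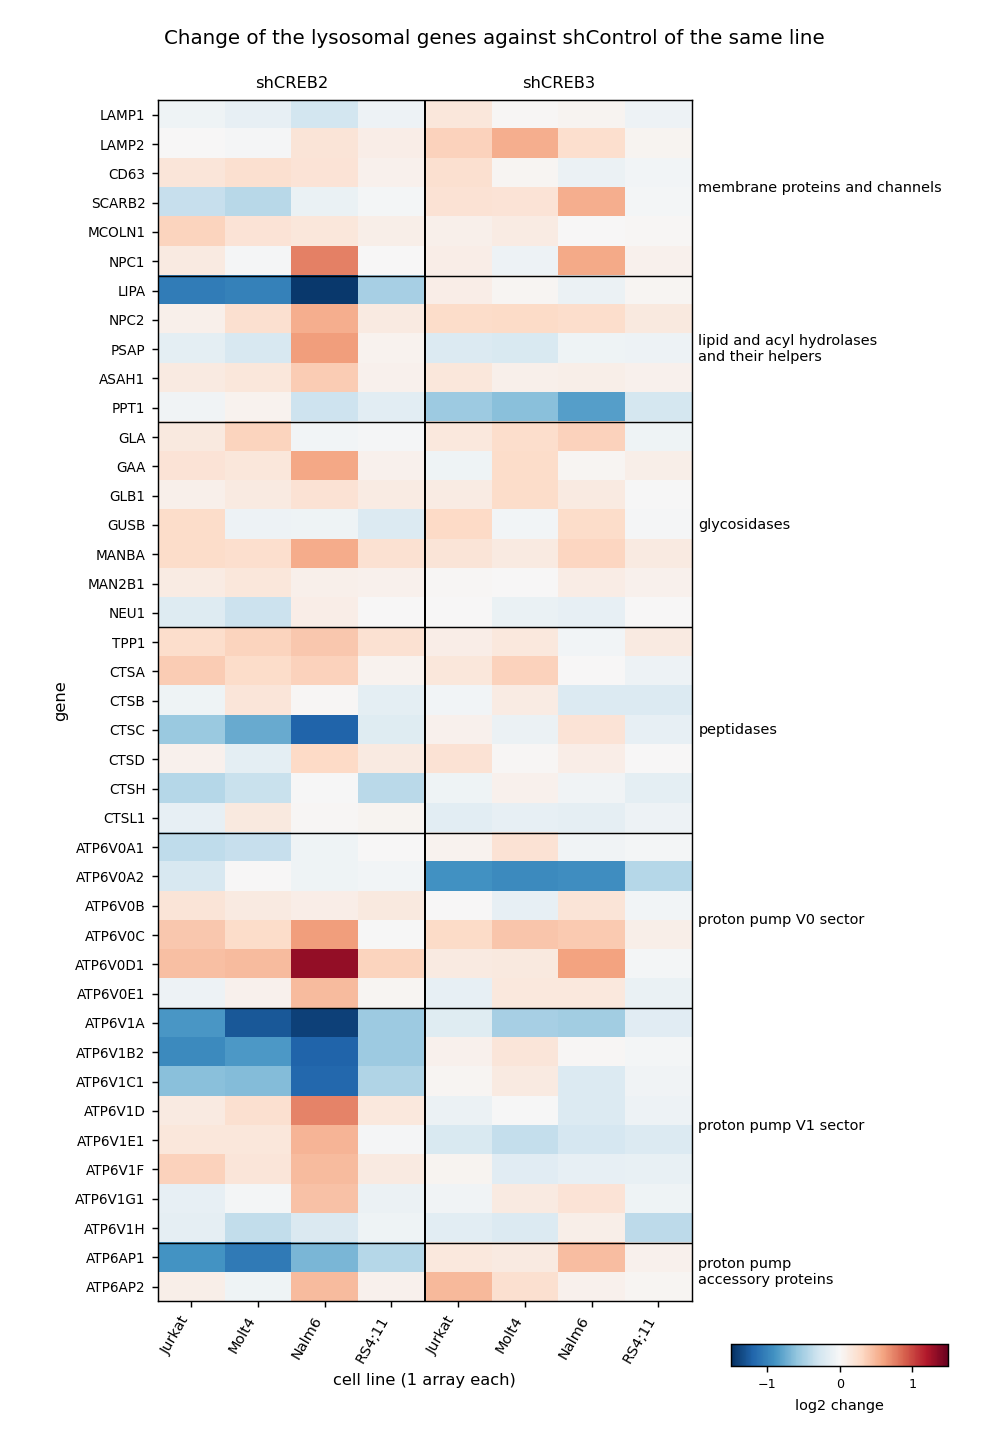
Heat map of the log2 change of the 41 measured lysosomal genes (vertical axis, grouped by role) on the 8 shRNA arrays (horizontal axis), each against shControl of the same line. ATP6V1A, ATP6V1B2, ATP6V1C1, ATP6AP1 and LIPA are blue on the 4 shCREB2 arrays, ATP6V0A2 and PPT1 on the 4 shCREB3 arrays.

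With both shRNAs averaged within each line, 4 of 41 members fell past the test, against 0.793% of all genes that fell, and 0 of 41 rose, against 0.336%. The 4 were ATP6V1A, LIPA, ATP6V0A2 and ATP6V1B2, each at an adjusted p of 0.046 and each lower in 4 of 4 lines. At an unadjusted p under 0.05 in limma, 12 members were higher and 10 were lower, against 1424 and 1324 of all 12486 genes. The methods' paired t-test gave 8 and 9 members at that threshold, against 1755 genes in either direction, with 0 members left after adjustment. Of the 41 members, 24 had a change above 0 and 17 below, against 6639 and 5847 of all 12486 genes. The median change over the 41 members was 0.08 against 0.01 over all genes. It was 0.035 without Nalm6 or its shControl array, 0.036 without its shCREB2 array and 0.042 with no filter on detection. Of the 4, only ATP6V1A was lower on all 8 arrays. All 4 calls were lost without Jurkat or without Molt4, in both cases with 0 genes called of all measured genes, and also without any 1 array of those lines, without the Nalm6 shCREB2 or shCREB3 array, without the replicate block, with normexp background correction by detection p-values, with the deposited table of gene means and with the mean of the detected probes. In each of these settings, 0 genes in all were called. Without the RS4;11 shCREB2 array, 1 of the 4 was kept, with 57 genes called in all.

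The comparisons of shCREB2 and of shCREB3 use the same 4 shControl arrays. With shCREB2 alone, 7 of 41 members fell (17.1%, against 4.28% of all genes) and 4 rose (9.76%, against 3.83%). Those that fell were ATP6V1A, LIPA, ATP6V1B2, ATP6AP1, ATP6V1C1, CTSC and CTSH, and those that rose were ATP6V0D1, MANBA, TPP1 and ATP6V1F. With shCREB3 alone, 2 members fell, ATP6V0A2 and PPT1 (4.88%, against 1.19% of all genes), and 0 rose, against 0.449%. In limma, 5 members and 1104 genes were higher with shCREB3 at an unadjusted p under 0.05, and the methods' paired t-test gave 4 at that threshold and 0 after adjustment. Without Jurkat or without Molt4, 0 members and 0 genes in all were called with either shRNA. Without the Nalm6 shCREB2 array, 10 of the 11 shCREB2 calls and both shCREB3 calls were kept, with 6 members called for shCREB3. Leaving out 1 array at a time gave 4 to 13 members for shCREB2, with the fewest without the Molt4 shControl array. Over all genes, 56 were called where 4 members were, and 1506 where 13 were. For shCREB3 it gave 0 to 6 members, with 0 or 1 without any array of Jurkat or Molt4 and 0 without the Nalm6 shControl or shCREB3 array. Over all genes, shCREB3 had 836 calls where 6 members were called, 42 where 1 was and 0 or 1 where 0 were. When each shRNA was fitted with only its own 8 arrays, 0 members were called for shCREB2 and 6 for shCREB3. Over all 12486 genes, these fits called 0 and 838. Without the line as a block, 0 members and 0 genes in all were called for either.

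The 2 shRNAs were also compared with each other. The size of this difference does not use shControl, but all 12 arrays were in the fit. The shControl arrays therefore entered the spread behind its standard errors and p-values. ATP6V1A, LIPA, ATP6V1B2, ATP6AP1, ATP6V1C1, CTSC and SCARB2, 7 of 41 members, were higher with shCREB3 than with shCREB2, against 7.04% of all genes. ATP6V0A2, PPT1, ATP6V1E1, ATP6V1D, ATP6V1F and TPP1, 6 of 41 members, were lower with shCREB3, against 7.61%. The largest of these differences was 1.02 for LIPA (standard error 0.13, adjusted p = 0.00375) and -0.72 for ATP6V0A2 (standard error 0.09, adjusted p = 0.00391), each with the same sign in all 4 lines. Without Jurkat or without Molt4, 0 of these 13 calls remained, and 12 did without the Nalm6 shCREB2 array. Without the shCREB3 array of Jurkat, Molt4 or Nalm6 or the Molt4 shCREB2 array, 8 did. Over all genes, 0 were called without either line, 1897 without the Nalm6 shCREB2 array and 663 to 825 where 8 remained. Of the 13, ATP6V1D was lost with normexp background correction by detection p-values (adjusted p = 0.0508) and with no filter (0.054), and TPP1 with both normexp corrections (0.0755 and 0.0522) and with median scaling (0.138).

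**Figure D2:**
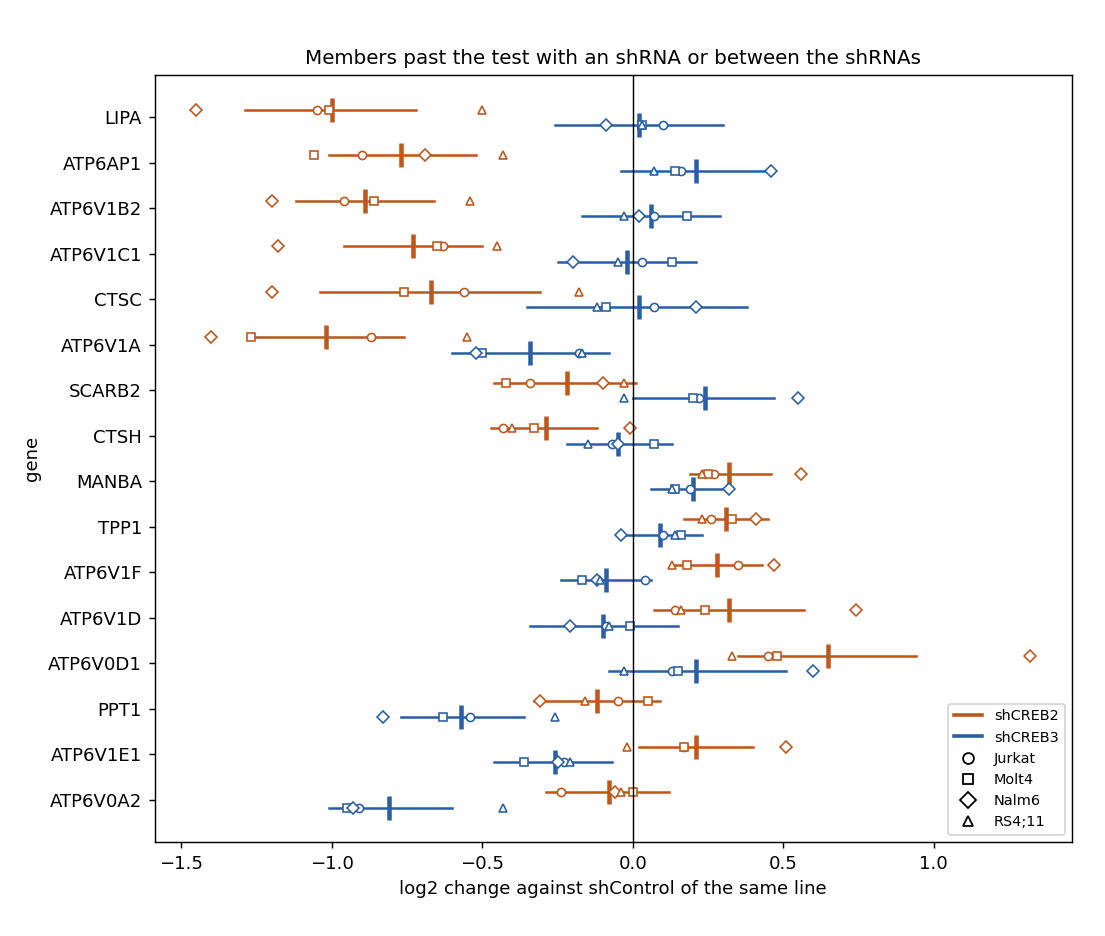
Log2 change against shControl of the same line (horizontal axis) for the 16 members past the test with an shRNA or between the shRNAs (vertical axis). Thick ticks are limma estimates, bars their 95% confidence intervals and open symbols the 4 lines, and LIPA, ATP6AP1, ATP6V1B2 and ATP6V1C1 lie at or below -0.43 in every line with shCREB2 and between -0.20 and 0.46 with shCREB3.

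The V1 sector, the part of the pump that splits ATP, held the largest fall with shCREB2. ATP6V1A encodes the A subunit with the catalytic site, and its log2 signals with shControl, shCREB2 and shCREB3 were 10.18, 9.32 and 10.00 in Jurkat, 10.12, 8.84 and 9.61 in Molt4, 10.56, 9.16 and 10.05 in Nalm6 and 9.86, 9.31 and 9.68 in RS4;11. The 4 shCREB2 arrays, at 8.84 to 9.32, lay below the 4 shControl arrays, at 9.86 to 10.56, without overlap, and shCREB3 lay between them in every line. Its averaged change was -0.68 (standard error 0.10, 95% confidence interval -0.91 to -0.45), a 1.60-fold decrease. With shCREB2 the change was -1.02 (standard error 0.12, adjusted p = 0.00461) and with shCREB3 it was -0.34 (standard error 0.12, adjusted p = 0.159).

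ATP6V1B2 encodes the B subunit that forms the ring of V1 together with A. In the same order its log2 signals were 10.91, 9.94 and 10.97 in Jurkat, 11.04, 10.18 and 11.22 in Molt4, 10.73, 9.53 and 10.75 in Nalm6 and 12.52, 11.98 and 12.49 in RS4;11. RS4;11 lay above the other lines with every vector, so the groups overlap across lines, but within each line the shCREB2 array was the lowest of the 3. It fell by 0.89 with shCREB2 (standard error 0.10, adjusted p = 0.00461), and with shCREB3 it differed by 0.06 (95% confidence interval -0.17 to 0.29).

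ATP6V1C1, the subunit that ties the V1 sector to V0 and is released when the pump comes apart, also fell with shCREB2. Its log2 signals were 7.95, 7.31 and 7.98 in Jurkat, 7.66, 7.01 and 7.79 in Molt4, 8.39, 7.21 and 8.18 in Nalm6 and 8.45, 8.0 and 8.41 in the other BCP-ALL line. Within every line the shCREB2 array was the lowest, and the Molt4 shCREB2 array did not pass the detection p-value. The change was -0.73 with shCREB2 (standard error 0.10, adjusted p = 0.00766) and -0.02 with shCREB3 (95% confidence interval -0.25 to 0.21).

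ATP6V1F, a subunit of the rotating central stalk, moved the other way. The arrays gave it log2 signals of 11.55, 11.90 and 11.59 in Jurkat, 11.53, 11.71 and 11.37 in Molt4, 11.48, 11.95 and 11.36 in Nalm6 and 11.42, 11.55 and 11.31 in the other BCP-ALL line. The shCREB2 array was the highest of each line, and it rose by 0.28 with shCREB2 (standard error 0.07, adjusted p = 0.0374). This call was lost without Nalm6, where the change was 0.22 at an adjusted p of 0.0731, and with normexp background correction by detection p-values (adjusted p = 0.0936).

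ATP6V1D is another subunit of the central stalk, with log2 signals of 10.29, 10.43 and 10.20 in Jurkat, 10.07, 10.31 and 10.06 in Molt4, 9.56, 10.30 and 9.36 in Nalm6 and 9.79, 9.95 and 9.71 in the other BCP-ALL line. It had a change of 0.32 with shCREB2 (adjusted p = 0.103) and -0.10 with shCREB3 (adjusted p = 0.716), and only the difference between the shRNAs passed the test (-0.42, standard error 0.11, adjusted p = 0.0322). ATP6V1E1, part of the outer stalks that hold the ring in place, had log2 signals of 11.64, 11.82 and 11.41 in Jurkat, 11.15, 11.33 and 10.79 in Molt4, 11.12, 11.64 and 10.87 in Nalm6 and 11.16, 11.15 and 10.96 in the other BCP-ALL line. It differed by 0.21 with shCREB2 and -0.26 with shCREB3, again with a difference between the shRNAs that passed (-0.47, standard error 0.09, adjusted p = 0.00843). Its shCREB3 array was the lowest of each line. ATP6V1G1, also of the outer stalks, differed by 0.05 with each shRNA. ATP6V1H, which regulates the coupling of V1 to V0, differed by -0.20 and -0.17, and 0 of these changes passed the test. A second ATP6V1H probe, detected on 5 arrays, gave -0.02 with shCREB2 and -0.03 with shCREB3. Over the 8 subunits of V1 the shCREB2 changes ran from -1.02 to 0.32 with a median of -0.07.

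In the V0 sector, which sits in the membrane and conducts protons, ATP6V0A2 carried the largest change. It encodes the a2 isoform of the subunit that forms the proton half-channels, and its log2 signals were 8.68, 8.44 and 7.77 in Jurkat, 8.61, 8.62 and 7.66 in Molt4, 8.70, 8.64 and 7.78 in Nalm6 and 8.41, 8.37 and 7.99 in RS4;11. The 4 shCREB3 arrays, at 7.66 to 7.99, lay below all 8 other arrays, at 8.37 to 8.70. It fell by 0.81 with shCREB3 (standard error 0.09, adjusted p = 0.0214), and with shCREB2 it differed by -0.08 (95% confidence interval -0.29 to 0.12). RS4;11 had the smallest change, at -0.43, while the other lines lay at -0.95 to -0.91.

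ATP6V0D1 encodes the d1 subunit that links the rotor stalk to the proton ring in the membrane. Its log2 signals were 8.71, 9.16 and 8.84 in Jurkat, 8.61, 9.09 and 8.76 in Molt4, 8.89, 10.21 and 9.49 in Nalm6 and 8.77, 9.10 and 8.73 in RS4;11. Nalm6 with shCREB2 was the highest array, at a change of 1.32, while the other lines lay at 0.33 to 0.48. It rose by 0.65 with shCREB2 (standard error 0.13, adjusted p = 0.0202) and had a change of 0.21 with shCREB3 (adjusted p = 0.446). Without Nalm6 the shCREB2 change was 0.42 at an adjusted p of 0.00706.

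ATP6V0C, the proteolipid that builds the proton ring, had the second largest averaged change above 0 after ATP6V0D1, at 0.31 (adjusted p = 0.0761) against 0.43 (adjusted p = 0.101), and neither passed the test. Log2 signals of this subunit were 12.01, 12.42 and 12.29 in Jurkat, 11.68, 11.96 and 12.10 in Molt4, 11.57, 12.20 and 11.96 in Nalm6 and 11.60, 11.59 and 11.69 in the other BCP-ALL line. The difference from shControl was 0.33 with shCREB2 (adjusted p = 0.0524) and 0.29 with shCREB3 (adjusted p = 0.13), and it was higher on 7 of 8 arrays. A second detected probe of ATP6V0C gave 0.33 and 0.26. ATP6V0B, another proteolipid of the ring, and ATP6V0E1, a small membrane subunit, had changes between 0.01 and 0.14, and ATP6V0A1, the a1 isoform, changes of -0.20 and 0.05. In Jurkat and Molt4, the lines in which ATP6V0A1 was detected, its shCREB2 changes were -0.38 and -0.34.

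ATP6AP1, an accessory protein needed to assemble the pump, was among the members that separated the shRNAs most. Its log2 signals were 11.15, 10.25 and 11.31 in Jurkat, 11.17, 10.11 and 11.31 in Molt4, 11.87, 11.18 and 12.33 in Nalm6 and 11.38, 10.96 and 11.45 in the other BCP-ALL line. In every line the shCREB2 array was the lowest and the shCREB3 array the highest. The change was -0.77 with shCREB2 (standard error 0.11, adjusted p = 0.00799) and 0.21 with shCREB3 (95% confidence interval -0.04 to 0.45), and the difference between the shRNAs was 0.97 (standard error 0.11, adjusted p = 0.00359). ATP6AP2, the second accessory protein, differed by 0.14 and 0.20 with neither past the test.

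Of all 16 pump genes, 4 fell and 2 rose with shCREB2, and 1 fell and 0 rose with shCREB3. Over all genes, 4.28% fell and 3.83% rose with shCREB2, and 1.19% fell and 0.449% rose with shCREB3. Their median change was 0.09 with shCREB2 and 0.02 with shCREB3, against 0.01 over all genes with each.

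Among the lipid and acyl hydrolases, LIPA, the lipase that frees cholesterol and fatty acids from lipoprotein lipids, had the largest fall. On the arrays it lay at log2 signals of 9.64, 8.59 and 9.74 in Jurkat, 9.34, 8.33 and 9.37 in Molt4, 9.16, 7.70 and 9.07 in Nalm6 and 9.45, 8.95 and 9.48 in the other BCP-ALL line. The shCREB2 arrays, at 7.70 to 8.95, lay below all shControl arrays, at 9.16 to 9.64, and the shCREB3 arrays lay within 0.10 of their control in every line. It fell by 1.00 with shCREB2 (standard error 0.13, adjusted p = 0.00604), a 2.01-fold decrease, and had a change of 0.02 with shCREB3 (95% confidence interval -0.26 to 0.30).

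PPT1, a thioesterase that removes palmitate from proteins, showed the reverse order of the shRNAs. Its log2 signals were 11.46, 11.41 and 10.92 in Jurkat, 11.25, 11.30 and 10.62 in Molt4, 11.35, 11.04 and 10.52 in Nalm6 and 11.28, 11.13 and 11.02 in the other BCP-ALL line. The shCREB3 arrays, at 10.52 to 11.02, lay below all shControl arrays, at 11.25 to 11.46. It fell by 0.57 with shCREB3 (standard error 0.09, adjusted p = 0.0272) and differed by -0.12 with shCREB2 (95% confidence interval -0.33 to 0.09), and the shCREB3 call was lost with normexp background correction by detection p-values (adjusted p = 0.0531).

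NPC2, which hands cholesterol to NPC1 for export from the lysosome, had log2 signals of 11.35, 11.42 and 11.63 in Jurkat, 11.01, 11.25 and 11.30 in Molt4, 11.16, 11.70 and 11.42 in Nalm6 and 11.24, 11.38 and 11.39 in the other BCP-ALL line. It was higher on 8 of 8 arrays by 0.08 to 0.54, with an averaged change of 0.25 (standard error 0.06, adjusted p = 0.07). ASAH1, the acid ceramidase, was also higher on 8 of 8 arrays, by 0.06 to 0.38, without passing the test (averaged change 0.14, adjusted p = 0.149). PSAP, the precursor of the saposins that present lipids to hydrolases, differed by 0.07 with shCREB2 and -0.14 with shCREB3. In Nalm6 its change with shCREB2 was 0.63, while the other lines lay at -0.24 to 0.05.

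The 7 measured glycosidases had small changes, mostly above 0. MANBA, the beta-mannosidase, was the 1 member that passed the test with an shRNA. Its signals on the log2 scale were 7.39, 7.66 and 7.59 in Jurkat, 7.66, 7.91 and 7.80 in Molt4, 7.87, 8.43 and 8.19 in Nalm6 and 8.38, 8.61 and 8.51 in the other BCP-ALL line. Both shRNA arrays lay above shControl in every line, and it rose by 0.32 with shCREB2 (standard error 0.06, adjusted p = 0.0157), with a change of 0.20 with shCREB3 (standard error 0.06, adjusted p = 0.143). GLA, GAA, GLB1, GUSB and MAN2B1, which cleave galactose, glucose, galactose, glucuronic acid and mannose, had averaged changes of 0.06 to 0.17, and the sialidase NEU1 one of -0.08. The median averaged change of the 7 was 0.13 against 0.01 over all genes.

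Of the peptidases, 2 fell and 1 rose with shCREB2. CTSC, the dipeptidyl peptidase that activates granule proteases of immune cells, had log2 signals of 9.56, 9.0 and 9.62 in Jurkat, 9.16, 8.40 and 9.07 in Molt4, 9.33, 8.13 and 9.54 in Nalm6 and 9.73, 9.55 and 9.61 in RS4;11. The shCREB2 array was the lowest of every line, at a change from shControl of -0.18 in RS4;11 to -1.20 in Nalm6, and shCREB3 lay within 0.21 of its control. CTSC fell by 0.67 with shCREB2 (standard error 0.16, adjusted p = 0.036), a call that was lost with normexp background correction by detection p-values (adjusted p = 0.0518) and with no filter on detection (adjusted p = 0.0634). Its 4 probes did not give the same size of change, with -0.67, -0.66, -0.27 and -0.07 for shCREB2 from the brightest to the dimmest, the last of which was detected on 4 arrays.

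CTSH, a cathepsin with aminopeptidase activity, had log2 signals of 8.91, 8.48 and 8.85 in Jurkat, 9.48, 9.14 and 9.55 in Molt4, 6.90, 6.89 and 6.85 in Nalm6 and 9.65, 9.25 and 9.49 in RS4;11. It fell by 0.29 with shCREB2 (standard error 0.08, adjusted p = 0.0484). The change was -0.43 in Jurkat, -0.33 in Molt4 and -0.40 in RS4;11, whereas in Nalm6, where CTSH was not above background on 3 of 3 arrays, it was -0.01. The call was lost under median scaling, at an adjusted p of 0.0598, and under both normexp corrections, at 0.052 and 0.0802. It was also lost with the looser filter on detection, at 0.051, and with no filter, at 0.0671. A second probe of CTSH, detected on 9 arrays, gave a change of -0.17 with shCREB2.

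TPP1, the tripeptidyl peptidase whose loss causes a childhood neuronal storage disease, rose. Its log2 signals were 8.42, 8.68 and 8.52 in Jurkat, 7.93, 8.26 and 8.09 in Molt4, 9.27, 9.68 and 9.23 in Nalm6 and 8.63, 8.86 and 8.77 in the other BCP-ALL line. The shCREB2 array was the highest of each line, and the change was 0.31 with shCREB2 (standard error 0.06, adjusted p = 0.0188) and 0.09 with shCREB3 (standard error 0.06, adjusted p = 0.479). CTSA, which protects the sialidase and the galactosidase, had averaged changes above 0 in 3 of 4 lines (0.18, adjusted p = 0.151). CTSB and CTSL1, both cysteine cathepsins, had averaged changes of -0.04 (0.02 with a second probe of CTSB) and -0.05, and CTSD, the main aspartic cathepsin, one of 0.09 (standard error 0.06, adjusted p = 0.394). CTSD had log2 signals of 7.67, 7.74 and 7.89 in Jurkat, 7.63, 7.48 and 7.65 in Molt4, 7.29, 7.58 and 7.38 in Nalm6 and 7.5, 7.65 and 7.51 in the other BCP-ALL line, with groups that overlap.

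The membrane proteins held no call against shControl. LAMP1, an abundant glycoprotein of the lysosomal membrane, lay at 10.74, 10.67 and 10.91 in Jurkat, 10.62, 10.5 and 10.64 in Molt4, 10.73, 10.46 and 10.77 in Nalm6 and 10.85, 10.77 and 10.76 in the other BCP-ALL line. The groups overlap, and its averaged change was -0.05 (standard error 0.05, 95% confidence interval -0.16 to 0.07). LAMP2, its relative that also serves chaperone-mediated autophagy, had log2 signals of 9.60, 9.61 and 9.94 in Jurkat, 9.75, 9.73 and 10.30 in Molt4, 10.11, 10.29 and 10.35 in Nalm6 and 10.19, 10.29 and 10.23 in the other BCP-ALL line. With shCREB3 it was higher in 4 of 4 lines by 0.04 to 0.55, and the change of 0.29 (standard error 0.09, adjusted p = 0.139) did not pass the test. All 5 LAMP2 probes were detected on all arrays, and their changes with shCREB3 ran from 0.23 to 0.49.

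SCARB2, an abundant protein of the lysosomal membrane, passed the test only between the shRNAs. Across the arrays its log2 signals read 9.27, 8.93 and 9.49 in Jurkat, 8.81, 8.38 and 9.0 in Molt4, 9.05, 8.95 and 9.60 in Nalm6 and 10.03, 10.00 and 10.00 in RS4;11. It differed by -0.22 with shCREB2 and 0.24 with shCREB3, and the difference of 0.46 (standard error 0.11, adjusted p = 0.0193) had the same sign in Jurkat, Molt4 and Nalm6, while in RS4;11 both changes were -0.03. The calcium channel MCOLN1 and the tetraspanin CD63 had averaged changes of 0.13 and 0.11. The cholesterol exporter NPC1 differed from shControl by 0.76 and 0.57 in Nalm6 and by -0.08 to 0.13 in the other lines.

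**Figure D3:**
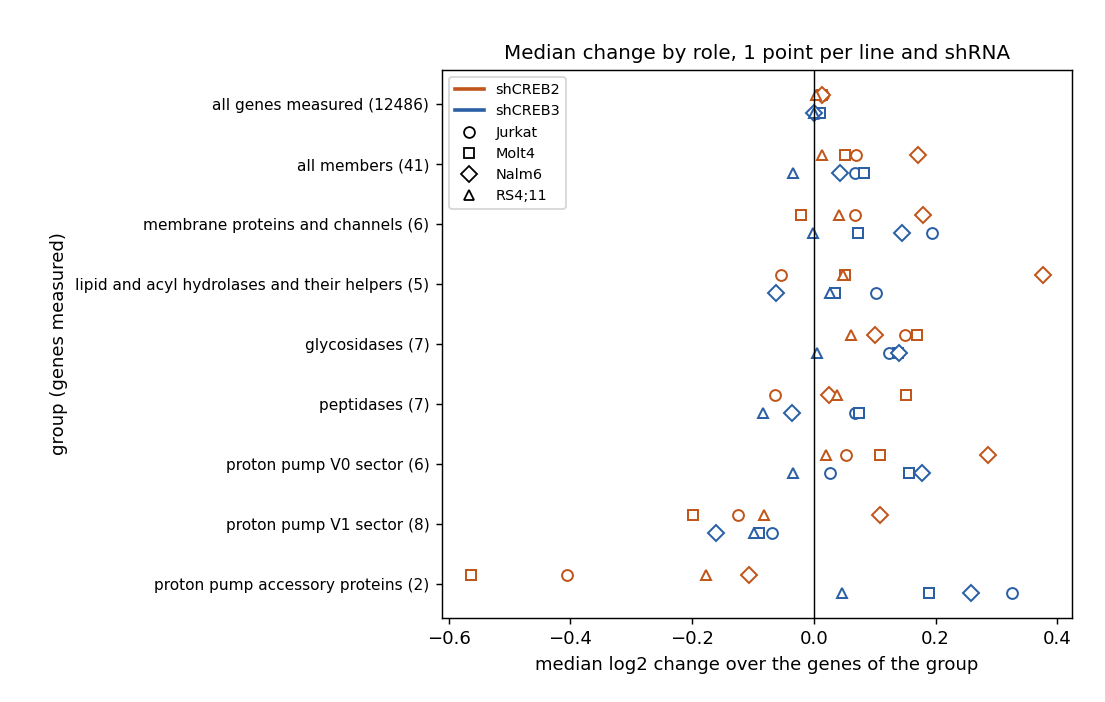
Median log2 change over the genes of each role (vertical axis, with the number of genes measured), 1 symbol per line and shRNA. The V1 sector is below 0 in 3 of 4 lines with shCREB2 and in 4 of 4 with shCREB3, while over all genes the medians lie between 0.000 and 0.015.

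The promoters shown above can be set beside these changes. Of the 7 members that fell with shCREB2, 4 had a promoter sequence at hand, while those of ATP6V1A, ATP6V1B2 and ATP6V1C1 were not searched. Of these 4, 0 held CACGTG or CGTCA, which was also true of both members that fell with shCREB3. Over all 34 members searched, 29.4% held CACGTG and 32.4% held CGTCA, so counts over so few genes cannot show a difference. Of the 4 that rose with shCREB2, 3 had a promoter in the table, 1 of which held CACGTG (ATP6V0D1) and 2 of which held CGTCA (ATP6V0D1 and TPP1). The 10 measured members with CACGTG had a median change of 0.16 with shCREB2 and 0.06 with shCREB3, and the 21 without had 0.10 and 0.05. For CGTCA, the 11 measured members with it had medians of 0.14 and 0.09, and the 20 without had 0.10 and 0.04. LAMP1 and MCOLN1, with several E-boxes each, did not pass the test with either shRNA.

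Levels differed between the cell lines for most members. In limma with the vector as a term, 31 of 41 members (75.6%) differed between lines, close to the 75% of all genes that did. These p-values measure the spread between the 3 arrays of a line, and the 31 members include ATP6V0A1 and CTSH, which were detected only in the lines where they were high. The median range between line means was 0.56 for the members and 0.47 for all genes. The members with the largest ranges were ATP6V0A1, CTSH, ATP6V1B2, CTSB, GLA and PSAP.

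ATP6V0A1 had log2 signals of 9.82, 9.43 and 9.86 in Jurkat, 9.30, 8.95 and 9.52 in Molt4, 6.83, 6.77 and 6.79 in Nalm6 and 6.89, 6.90 and 6.86 in RS4;11. It had line means of 9.70 in Jurkat and 9.26 in Molt4, and the probe was not above background on any array of Nalm6 or RS4;11. Its signal was therefore at least 5.28-fold higher in the T-ALL lines, where the background bound is the mean of the lowest detected signals of the dim arrays. It was also the 1 member of 41 called between the lineages (higher in T-ALL by 2.64 as measured, standard error 0.19, adjusted p = 0.0266), against 0.673% of all genes that were called higher in T-ALL. Since it passed the filter on detection only through the T-ALL lines, it had to differ, and the call is given as a description. No member was lower in T-ALL (0 of 41, against 0.376% of all genes), with 8 members and 917 genes at an unadjusted p under 0.05 in limma. With 2 lines per lineage, the ATP6V0A1 call was lost without any 1 of the lines, at adjusted p-values of 0.0504 to 0.23, and with no filter on detection (adjusted p = 0.0927). The related isoform ATP6V0A2, by contrast, had line means of 8.26 to 8.37 and did not pass the test between lines (adjusted p = 0.759).

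CTSH was above background in every line but Nalm6. Its line means were 8.75 in Jurkat, 9.39 in Molt4 and 9.46 in RS4;11, so that these lines were at least 4.32-fold higher than Nalm6. CTSH passed the filter on detection only through these lines, so this difference is a description too. ATP6V1B2 was highest in RS4;11, with a line mean of 12.33 (SD 0.31, n = 3 arrays) against 10.34 to 10.81 in the other lines. CTSB was likewise highest in RS4;11, at 10.00 (SD 0.11, n = 3 arrays) against 8.40 to 8.73, with arrays at 8.43, 8.37 and 8.39 in Jurkat, 8.38, 8.56 and 8.5 in Molt4, 8.79, 8.81 and 8.59 in Nalm6 and 10.12, 9.97 and 9.91 in the fourth line. The means of Jurkat and Molt4, at 8.40 and 8.48, lay closer to each other than the arrays of Molt4, which ran from 8.38 to 8.56.

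GLA was lowest in Jurkat and highest in Nalm6, with line means of 9.35, 9.76, 10.11 and 10.88 for Jurkat, Molt4, RS4;11 and Nalm6. The arrays of these lines, in that order, gave GLA 9.24, 9.39 and 9.40, then 9.56, 9.90 and 9.83, then 10.14, 10.12 and 10.07, and then 10.78, 10.74 and 11.13. PSAP was higher in both T-ALL lines, at 12.50 and 12.63 in Jurkat and Molt4 against 11.22 and 11.72 in Nalm6 and RS4;11, but did not pass the test between lineages (adjusted p = 0.157). The Nalm6 mean of PSAP includes the shCREB2 array at 11.66, with the other arrays of that line at 11.03 and 10.97. The remaining arrays of PSAP lay at 12.62, 12.47 and 12.42 in Jurkat, 12.79, 12.55 and 12.56 in Molt4 and 11.73, 11.78 and 11.65 in the other BCP-ALL line.

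**Figure D4:**
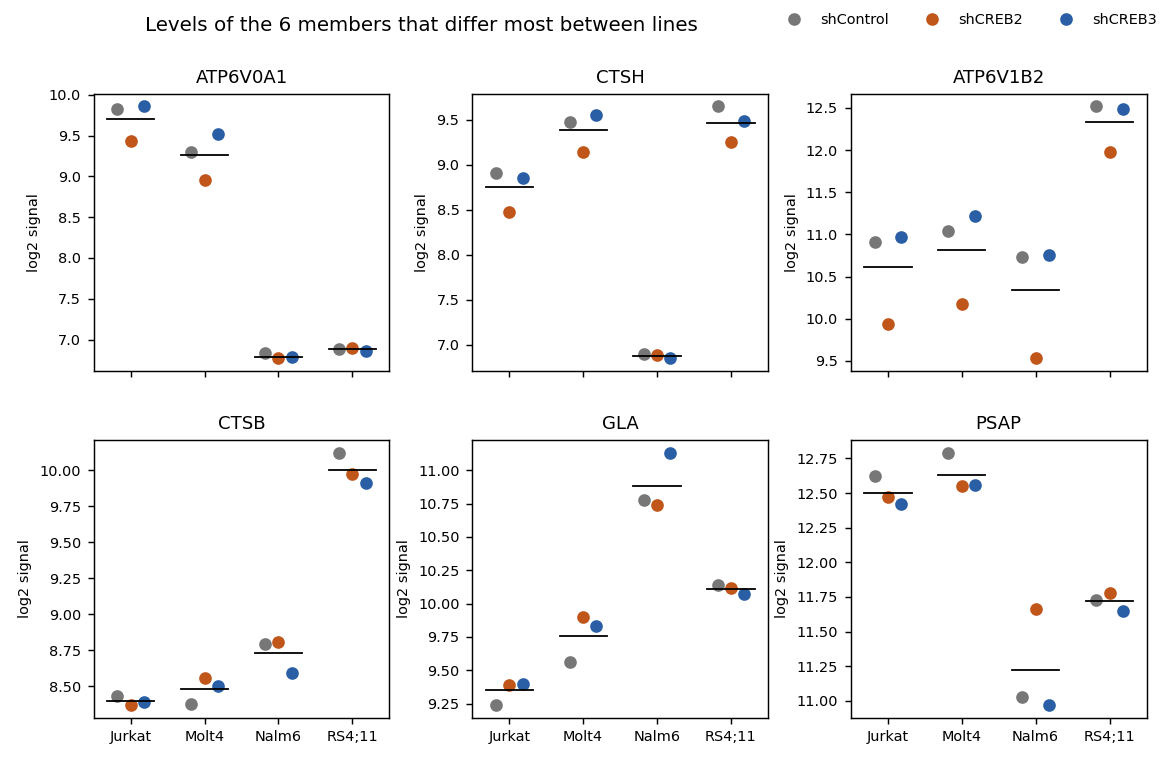
Log2 signal (vertical axes, each with its own range that does not start at 0) of the 6 members with the largest range between line means, by cell line (horizontal axis). Points are single arrays coloured by vector and lines are means of 3 arrays, and ATP6V0A1 is at or below 6.90 in Nalm6 and RS4;11, as is CTSH in Nalm6, where neither probe was above background.

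A difference between the lineages in the change was then tested. Of 41 members, 0 passed the test for a change that differed between T-ALL and BCP-ALL lines, against 0% of all genes, and in limma 2 members and 542 genes had an unadjusted p under 0.05. Nalm6 had the highest median change of the members with shCREB2, at 0.172, and RS4;11 the lowest, at 0.013, and both are BCP-ALL lines. Without RS4;11, 2 members and 322 of 12486 genes passed this test, but Nalm6 was then the only BCP-ALL line and was assumed to vary like the T-ALL lines.

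Of the 41 measured members, 37 were detected on all 12 arrays. Besides CTSH on 9 arrays and ATP6V0A1 on 6, GAA was detected on 10 and ATP6V1C1 on 11. The 5 members that were not measured were SMPD1, the acid sphingomyelinase, HEXA, a subunit of the hexosaminidase, the cathepsins CTSS and CTSZ, and TFEB. TFEB was detected on 1 of 12 arrays, with log2 signals of 6.84 to 7.09, so a change in its mRNA could not be measured. CTSZ was detected on 3 of 3 RS4;11 arrays and on no other, and CTSS on 2 Nalm6 arrays and 1 RS4;11 array.

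Other genes of the same pathways were taken from lists of lysosomal and autophagy genes. For the counts in these lists, the share of all genes called was 3.83% higher and 4.28% lower with shCREB2, and 0.449% higher and 1.19% lower with shCREB3. Of 29 other lysosomal hydrolases and activators measured, 2 rose and 2 fell with shCREB2. SUMF1, which activates sulfatases, was among those that rose (0.37, adjusted p = 0.0323), and the mannosidase MAN2B2 among those that fell (-0.43, adjusted p = 0.021). With shCREB3, 0 of the 29 passed the test in limma, with 5 higher and 2 lower at an unadjusted p under 0.05, against 1104 and 1126 of all 12486 genes.

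Of 25 other lysosomal membrane proteins, 3 rose and 2 fell with shCREB2 and 0 passed with shCREB3. Among the 3 past the test, LAPTM4A (0.35, adjusted p = 0.014) and TMEM55B, which positions lysosomes on microtubules (0.30, adjusted p = 0.0218), rose most. The largest change above 0 in this list was 0.49 and did not pass. LMBRD1, the cobalamin exporter (-0.37, adjusted p = 0.0434), and the nucleoside transporter SLC29A3 (-0.19, adjusted p = 0.0374) fell. TMEM55B was also called higher with both shRNAs averaged (0.26, adjusted p = 0.049), but not with normexp background correction by detection p-values (adjusted p = 0.0947), the deposited table of gene means (0.0826), the looser filter (0.0507), the mean of the probes (0.0621) or all arrays in 1 fit (0.0514), nor without any 1 line. The LMBRD1 call was lost with the same normexp correction (0.0627) and with no filter (0.0662). Of 9 further pump subunits and assembly factors, only WDR7 passed with shCREB2, and it fell (-0.34, adjusted p = 0.0419), a call lost with the deposited table of gene means (0.0621) and with no filter (0.0614).

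Among 10 sorting receptors and enzymes of the mannose-6-phosphate tag, 1 rose with shCREB2, the receptor M6PR (0.50, adjusted p = 0.012). Of 21 measured genes of the MiT/TFE factors and the lysosomal mTORC1 machinery, 3 rose and 1 fell with shCREB2. They include Rag GTPases in both directions, with RRAGA (0.70, adjusted p = 0.0484) and RRAGD (0.53, adjusted p = 0.0141) higher and RRAGC (-0.35, adjusted p = 0.00697) lower. The RRAGA call was lost with normexp background correction by detection p-values (adjusted p = 0.0637), with the deposited table of gene means (0.057), with the looser filter on detection (0.0554) and with no filter (0.0885). TFE3, a relative of TFEB, differed by 0.07 with both shRNAs averaged (adjusted p = 0.474). Of 25 autophagy genes, ATG7 (0.37, adjusted p = 0.0338) and VPS18 (0.27, adjusted p = 0.0444) rose with shCREB2 and BECN1 (-0.37, adjusted p = 0.0159) fell, with VPS18 lost when no filter was set (0.0557).

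Of 3 measured inhibitors of cathepsins, 1 passed the test. CSTB, the cytosolic inhibitor of cathepsins B, H and L, had the largest fall with shCREB3 of all genes measured. Its log2 signals with shControl, shCREB2 and shCREB3 were 11.07, 10.90 and 8.77 in Jurkat, 10.74, 10.72 and 8.23 in Molt4, 10.01, 9.96 and 7.46 in Nalm6 and 11.17, 11.15 and 10.24 in RS4;11. The shCREB3 array was the lowest of each line, at a change of -0.93 in RS4;11 and of -2.55 to -2.30 in the others. CSTB fell by 2.07 with shCREB3 (standard error 0.24, adjusted p = 0.0214), a 4.20-fold decrease, and differed by -0.07 with shCREB2 (standard error 0.24, adjusted p = 0.892). The enzymes it inhibits, CTSB, CTSH and CTSL1, had changes of -0.08, -0.05 and -0.12 with shCREB3, with 0 of them past the test.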

How the data were processed

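RNA of 4 cell lines with 3 vectors was hybridized on 12 Illumina HumanHT-12 BeadChips (version 4 by the methods, version 2 by the design text), and probe signals were extracted with GenomeStudio. The deposited probe table holds non-normalized signals, without background subtraction, and a detection p-value per probe that the authors exported with them. In 98.1% of its 567876 signal cells the decimal mark was missing. The mark was put back by means of 34694 gene means that the authors deposited after quantile normalization, whose values were found to be on the natural log scale although the methods name log2. Of the readable cells, the 5779 of genes with a single probe were used as a check, and the restored place was right in all 5779. For the 8468 genes with several probes, the places were chosen to meet the deposited gene mean and were not checked this way. Of these, 65 probes of 22 genes were left out as unsure. Signals were quantile normalized and brought to log2 here, and no deposited log2 value was used.

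A probe was kept when 4 or more of the 12 arrays had a detection p-value under 0.01, and the brightest probe stood for its symbol. Tests used limma 3.58.1 in R 4.3.3 with Benjamini-Hochberg adjustment over 12486 genes, with cell line as a block over the 12 arrays, and for both shRNAs averaged on 4 differences. The 3 arrays of a line are the same cell line, which pairs them. The spread measured is that between lines, and precision is limited by the number of arrays. The fits of each shRNA against shControl were tested on simulated data in which both shRNAs had the same change. A change with a single shRNA was not simulated. Promoters were read with Python 3.11.15. Members were chosen by name, and members, lists and tests were chosen with earlier results of these data known. Named genes were those past a test, the 3 largest changes per direction with the same sign in every line, the 6 largest ranges between lines, TFEB, LAMP1, LAMP2, CTSD, ATP6V1A and CSTB, and up to 2 per direction from each list of other genes, of which some are not reported here. Alternatives covered normalization, background, filter, probe choice, block, fit, the methods' t-test and left-out lines and arrays.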

Additional observations from a re-analysis of the deposited data

Results flagged for a closer look

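In 8 of 164 groups of 4 lines looked at over the 41 measured members, 1 line lay apart from the other 3 by Dixon's criterion at the 95% level, which chance meets in about 1 of 20 groups. Nalm6 lay apart in 5 of them. With shCREB2, the Nalm6 change of ATP6V0D1 was 1.32 on the log2 scale while the other lines had 0.33 to 0.48, that of MANBA was 0.56 against 0.23 to 0.27, and that of ATP6V1G1 was 0.44 against -0.12 to -0.03. With both shRNAs averaged, the Nalm6 change of ATP6V1C1 was -0.69 against -0.30 to -0.25. The mean level of ATP6V0D1 in Nalm6 was 9.53 against 8.82 to 8.90 in the other lines. All 5 values include the Nalm6 shCREB2 array, the array with the lowest correlation to the others. In RS4;11 the change of ATP6V0A2 with shCREB3 was -0.43 against -0.95 to -0.91. The averaged change of TPP1 was 0.25 in Molt4 against 0.18 to 0.19, and the shCREB3 change of ASAH1 was 0.17 in Jurkat against 0.07 to 0.09.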

How the results depend on the processing

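The counts of lysosomal genes called were the results that moved most. With both shRNAs averaged, 4 were called, and 2 with all 12 arrays in 1 fit. With normexp by detection p-values, with the deposited table of gene means, with the mean of the detected probes and without the replicate block, 0 were called. The methods' t-test, paired or unpaired, also gave 0. Over all genes, 141 were called, 163 with all 12 arrays in 1 fit, and 0 in each setting that called 0 members. For shCREB2, 11 were called, and 0 without the replicate block, with only the 8 arrays compared and with either form of the methods' t-test. Over all genes, 1013 were called, and 0 in these settings except for 1 with the paired t-test. For shCREB3, 2 were called, and 1 with normexp by detection p-values and 6 with only the 8 arrays compared. Without the replicate block and with either form of the methods' t-test, 0 were called. Over all genes, 204 were called, 92 with that normexp correction, 838 with only the 8 arrays compared and 0 in the settings with 0 members. Between the shRNAs, 13 were called and 0 without the replicate block, against 1829 and 4 of all genes. At an unadjusted p under 0.05 the methods' paired t-test gave 17 members for both shRNAs averaged, 14 for shCREB2 and 10 for shCREB3, against 1755, 1770 and 1969 of all 12486 genes. For the level between lineages, 1 was called, and 0 with the filter on all 12 arrays or no filter. Over all genes, these counts were 131 of 12486, 8 of 8904 and 58 of 31402. Leaving out lines or single arrays gave 0 to 8 members for both shRNAs averaged, 0 to 13 for shCREB2, 0 to 6 for shCREB3, 0 to 15 between the shRNAs, 0 to 2 for the lineage difference in the change, 24 to 32 between lines and 0 to 1 for the lineage level. Over all genes, the 4 shRNA counts ran from 0 to 435, 0 to 1506, 0 to 836 and 0 to 2218 in the same order. Without Jurkat or Molt4 all 4 shRNA counts were 0, for members and for all genes. Without any 1 array of either line, 0 members and 0 genes in all were called for both shRNAs averaged. Without the Nalm6 shControl or shCREB3 array, shCREB3 had 0. The median averaged change of the members was 0.035 to 0.094 when lines or arrays were left out. The causes were not tested. The genes chosen by the naming rule were recomputed in the comparisons they were chosen for, and none of these changed direction. With another probe, CTSB averaged and the shCREB3 changes of ATP6V0B and CTSC changed sign, all within 0.19 of 0. With 4 lines, and 2 per lineage, small changes could be missed, although some were called, such as SLC29A3 at -0.19 with shCREB2.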
